A study of Homo sapiens with 6 samples.

Results

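Deoxynucleotide synthesis enzymes make the 4 building blocks of DNA. Of the 58735 rows of the count table, the 9 whose gene symbol is CAD, RRM1, RRM2, RRM2B, DUT, TYMS, DTYMK, TK1 or DCK were taken, and they were compared between RD cells expressing TAK1 shRNA and RD cells expressing scrambled shRNA. All 9 names were found, each in 1 row, and all 9 passed the filter on low counts, which kept 15935 genes. RD is an established cell line of embryonal rhabdomyosarcoma (ERMS), a soft tissue sarcoma with features of skeletal muscle. Both groups were transduced with lentiviral particles, which carried a scrambled shRNA in the control group (n = 3) and an shRNA against TAK1 in the knockdown group (n = 3). TAK1 is the kinase encoded by MAP3K7. A single shRNA construct in 1 cell line was sequenced, so an effect of lower TAK1 and an effect particular to that construct cannot be told apart. The labels number the replicates and do not say whether they came from separate cultures, so the p-values measure the spread between these samples, which may be technical.

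DNA synthesis needs dATP, dGTP, dCTP and dTTP, and proliferating cells make most of them from ribonucleotides. CAD carries out the opening steps of pyrimidine synthesis, and ribonucleotide reductase then removes a hydroxyl oxygen from the ribose of nucleoside diphosphates. The reductase pairs the large subunit RRM1 with a small subunit, which is RRM2 in S phase or RRM2B, known as the subunit that serves DNA repair and mitochondrial DNA outside S phase. The thymidylate branch is specific to DNA: DUT removes dUTP and yields dUMP, TYMS methylates dUMP to dTMP, and DTYMK phosphorylates dTMP to dTDP. TK1 and DCK are salvage kinases that phosphorylate thymidine and deoxycytidine taken up from outside. The mRNAs of RRM2, TYMS, DUT and TK1 are known to rise as cells enter S phase.

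Levels are given in CPM, the counts of a gene per 1e+06 counts of normalized library size. In TAK1 knockdown RD cells, 7 of the 9 enzymes were called lower and none was called higher. The 7 were RRM2B, DUT, TYMS, RRM2, RRM1, TK1 and DCK, and DTYMK and CAD were not called. A call required an adjusted p below 0.05 in the quasi-likelihood test of edgeR, adjusted by the Benjamini-Hochberg method over all genes tested, and a log2 fold change of 0.25 or more in size. The 7 calls stand beside 11.3% of all genes tested called lower by the same rule, and the 0 calls beside 11.8% called higher. All 9 fold changes were below 0, that of CAD by so little that it turned positive with 2 other scalings, so at an unadjusted p below 0.05 edgeR also gave 0 higher enzymes. DESeq2 and limma voom called 0 higher as well. The median log2 fold change of the 9 enzymes was -0.35, against 0.018 for all genes tested. In 8 of the 9 all 3 TAK1 shRNA values lay below all 3 scrambled shRNA values, a pattern shown by 22.2% of the genes tested, and CAD was the enzyme in which the groups overlapped. The 7 called lower remained the 7 called in each of the 6 fits that left out a sample.

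**Figure D1:**
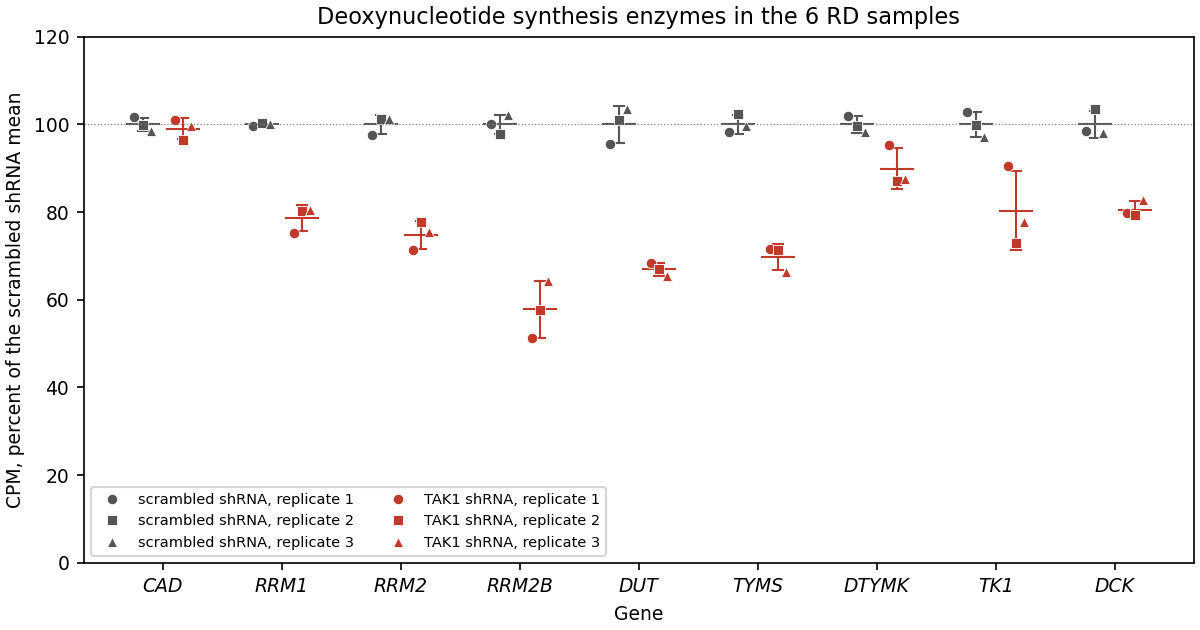
CPM (read counts scaled to a common library size) of each enzyme in each of the 6 samples, drawn as a percent of the scrambled shRNA mean of that gene on an axis that starts at 0, with the mean and SD of each group (n = 3) as a long and 2 short lines. The TAK1 shRNA mean runs from 57.8% of the scrambled mean for RRM2B to 99.0% for CAD, and TK1 and RRM2B show the widest TAK1 shRNA spread.

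The samples held 28839898 to 34469323 counts in all, and the 9 enzymes held between 477 counts, for RRM2B in a TAK1 shRNA sample, and 15378 counts, for CAD. MAP3K7 stood at 77.3 ± 0.743 CPM (SD, n = 3) with scrambled shRNA and 31.3 ± 2.00 with TAK1 shRNA, a log2 fold change of -1.30. Of 7 fixed markers of the skeletal muscle lineage, MYF5 was at 0 in every sample and the other 6 were expressed, MYOD1 and MYOG among them. Their summed level was 1885 to 1916 CPM in the scrambled samples and 1803 to 1916 CPM in the TAK1 shRNA samples. MYOD1, MYOG and MYMK were called higher, at log2 fold changes of 0.37, 0.27 and 0.98, and CHRNA1 was called lower at -0.40. No epithelial, leukocyte or endothelial marker exceeded 15 counts in a sample. The part that this shift in muscle genes has in the values of the enzymes was not tested. In bulk RNA, fewer cells in S phase and less of an mRNA in each cell cannot be told apart.

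Short stretches of promoter are shown because several of the enzymes share letters that cell cycle factors are known to bind, among them the CCAAT box of NF-Y and the sites of E2F factors. RefSeq promoter windows, from 250 bases before to 50 bases after an annotated start on GRCh38.p14, matched 8 of the 9 enzymes by symbol, with 13 windows, and RRM2B had no entry. Each stretch below is 30 bases, read 5′ to 3′ on the strand of the gene, and the capitals mark the motif. The stretches of RRM2 hold 3 copies of CCAAT, starting at -123, -93 and -66 from 1 of its 2 annotated starts. Another copy, at -249 from the other start, is not printed. Those of TK1 hold ATTGG, the same box on the other strand, at -77 and -46 from 1 of its 2 annotated starts. Those of TYMS and DUT hold an E2F motif within 50 bases of an annotated start.
RRM2, chr2:10122604-10122633, plus strand: ggcaaggcgcagCCAATgggaagggtcgga
RRM2, chr2:10122634-10122663, plus strand: ggcatggcacagCCAATgggaagggccggg
RRM2, chr2:10122661-10122690, plus strand: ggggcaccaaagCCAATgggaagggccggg
RRM1, chr11:4094645-4094674, plus strand: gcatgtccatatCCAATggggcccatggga
TK1, chr17:78187112-78187141, minus strand: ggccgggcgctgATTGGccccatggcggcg
TK1, chr17:78187081-78187110, minus strand: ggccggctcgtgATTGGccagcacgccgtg
DTYMK, chr2:241686822-241686851, minus strand: tgttgacgccggCCAATgggagctccggaa
CAD, chr2:27217119-27217148, plus strand: ATTGGtgttgttgcctataataaacacttt
TYMS, chr18:657603-657632, plus strand: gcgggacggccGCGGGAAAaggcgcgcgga
DUT, chr15:48332144-48332173, plus strand: gggcggggctgGCGGGAAAtttcggttttg
DUT, chr15:48332159-48332188, plus strand: gaaatttcggtTTTGGCGCgctccctgcgg
DCK, chr4:70993659-70993688, plus strand: gctgcctccgcGCGCCAAAgtcaaaccccg

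An E2F motif, searched as TTTCCCGC, TTTCGCGC, TTTGCCGC and TTTGGCGC on both strands, was present for 3 of the 8 enzymes (DUT, TYMS and DCK), beside 3.99% of the 27305 genes with a window. CCAAT on either strand was present for 5 (CAD, RRM1, RRM2, DTYMK and TK1), beside 39.7% of genes. In CAD it sat at the far edge of the window, at -250. The cell cycle homology letters TTTGAA or TTCGAA on either strand were present for RRM1, DUT and DTYMK, beside 19.5% of genes, and the E-box CACGTG was present for DCK alone of the 8, beside 8.77%. In DTYMK the letters TTCGAA began at -84, 8 bases downstream of the start of a CCAAT at -92, which is another copy than the one printed. The 2 DUT motifs printed stand on stretches that overlap each other. No enzyme held both an E2F motif and CCAAT in its windows, and both the enzymes with an E2F motif and those with CCAAT include genes called lower. These matches describe letters in a window and are not measurements of binding.

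CAD (ENSG00000084774.14, chr2:27217369-27243943, plus strand, all positions in GRCh38 with GENCODE 44) is the large enzyme that joins the first 3 activities of pyrimidine synthesis, and it did not pass the test. CAD stood at 459, 451 and 445 CPM in scrambled shRNA samples 1 to 3 and at 456, 435 and 450 CPM in TAK1 shRNA samples 1 to 3. The groups overlapped, and every sample lay within a narrow band. The log2 fold change was -0.015 with an SE of 0.042 and an adjusted p of 0.831 by edgeR, and its approximate 95% interval ran from -0.097 to 0.068. The sign turned positive with library size alone as the scaling, at 0.034, with upper quartile normalization and without TAK1 shRNA replicate 2.

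Ribonucleotide reductase mRNAs were lower in all 3 subunits. RRM1 (ENSG00000167325.15, chr11:4094707-4138932, plus strand), the large catalytic subunit, stood at 232, 233 and 233 CPM with scrambled shRNA and at 175, 187 and 187 CPM with TAK1 shRNA. The 3 control values were almost the same, with an SD of 0.733 CPM, and all 3 TAK1 shRNA values were lower. The means were 233 ± 0.733 and 183 ± 6.97 CPM (SD, n = 3). The log2 difference was -0.35 ± 0.045 (SE), with an adjusted p of 1.55e-06 by edgeR.

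RRM2 (ENSG00000171848.16, chr2:10120698-10211725, plus strand), the S-phase small subunit that carries the tyrosyl radical, stood at 295, 307 and 307 CPM with scrambled shRNA and at 216, 235 and 229 CPM with TAK1 shRNA. The highest TAK1 shRNA sample was well under the lowest control. Group means were 303 ± 6.62 and 227 ± 9.54 CPM (SD, n = 3). edgeR put the log2 fold change at -0.42 ± 0.046 (SE), with an adjusted p of 8.71e-08.

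RRM2B (ENSG00000048392.13, chr8:102204502-102238961, minus strand), the alternative small subunit, had the largest fall of the 9 on the log2 scale. It stood at 31.8, 31.1 and 32.4 CPM with scrambled shRNA and at 16.3, 18.3 and 20.4 CPM with TAK1 shRNA. The controls were tight and the TAK1 shRNA samples were spread, with coefficients of variation of 2.12% and 11.3%, yet the groups stood far apart. It fell on average from 31.8 ± 0.674 to 18.4 ± 2.07 CPM (SD, n = 3), to 57.8% of the control. The log2 fold change of RRM2B was -0.79 ± 0.081 (SE), with an adjusted p of 3.35e-08 by edgeR. Of all genes tested, 281 were called lower by as much as RRM2B or more. Leaving out each sample moved the log2 fold change of RRM2B between -0.88 and -0.71.

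The balance of the subunits was read from ratios of their counts within each sample. The RRM2 to RRM2B ratio, which does not depend on how libraries are scaled, was 9.30, 9.87 and 9.46 with scrambled shRNA and 13.3, 12.8 and 11.2 with TAK1 shRNA. Every TAK1 shRNA sample was above every control. The means were 9.55 ± 0.295 and 12.4 ± 1.11 (SD, n = 3), a log2 difference of 0.38 with an SE of 0.080. The RRM2 to RRM1 ratio was 1.27, 1.32 and 1.32 with scrambled shRNA and 1.24, 1.26 and 1.22 with TAK1 shRNA. The groups did not overlap here either, and the log2 difference was small, at -0.072 with an SE of 0.020. The exact two-sided permutation test gave p = 0.1 for each of these ratios, the smallest p that 3 samples against 3 allow, and an adjusted p of 0.15 over the 3 ratios planned, so this test cannot place either ratio past 0.05.

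**Figure D2:**
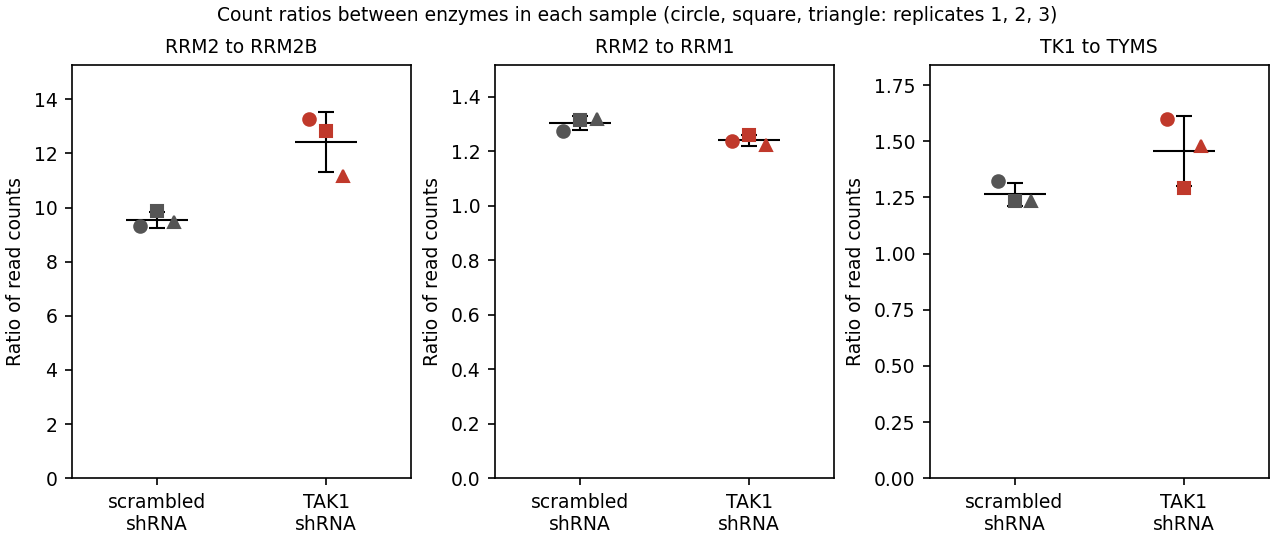
Ratios of read counts between pairs of enzymes in each sample, with the group mean and SD (n = 3) as lines and each axis starting at 0. RRM2 to RRM2B is higher in every TAK1 shRNA sample, RRM2 to RRM1 is slightly lower in every one, and TK1 to TYMS overlaps between the groups.

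In the thymidylate branch, DUT and TYMS fell and DTYMK did not pass the fold threshold. DUT (ENSG00000128951.14, chr15:48331011-48343373, plus strand), the dUTP pyrophosphatase that keeps uracil out of DNA, stood at 50.3, 53.2 and 54.5 CPM with scrambled shRNA and at 36.0, 35.3 and 34.4 CPM with TAK1 shRNA. The TAK1 shRNA samples were tighter than the controls, and the groups did not overlap. The average fell from 52.7 ± 2.18 to 35.2 ± 0.770 CPM (SD, n = 3). This was a log2 fold change of -0.58 ± 0.062 (SE), with an adjusted p of 6.88e-08 by edgeR. DUT-AS1, on the opposite strand, overlaps 533 exon bases of DUT, 14.5% of them. The deposited counts hold no row under that name, so its level could not be read.

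TYMS (ENSG00000176890.16, chr18:657653-673578, plus strand), thymidylate synthase and the target of 5-fluorouracil, stood at 88.6, 92.3 and 89.8 CPM with scrambled shRNA and at 64.5, 64.4 and 59.9 CPM with TAK1 shRNA. All TAK1 shRNA samples lay clearly below the controls. Its mean went from 90.3 ± 1.87 to 63.0 ± 2.63 CPM (SD, n = 3). The fold change on the log2 scale was -0.52 ± 0.054 (SE), with an adjusted p of 3.55e-08 by edgeR. In GENCODE 44, 967 exon bases of TYMS, 39.9% of its exon bases, overlap ENOSF1 on the opposite strand, and strand use in counting is not given in the sources used here. ENOSF1 stood at 22.4 ± 0.279 and 24.6 ± 3.73 CPM (SD, n = 3), with a log2 fold change of 0.14 and an adjusted p of 0.253 by edgeR, and was not called.

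DTYMK (ENSG00000168393.13, chr2:241675747-241686944, minus strand), the kinase that makes dTDP from dTMP, stood at 145, 142 and 140 CPM with scrambled shRNA and at 135, 124 and 124 CPM with TAK1 shRNA. The groups did not overlap, but the gap between the nearest samples was small. The log2 fold change was -0.15 with an SE of 0.050, and the adjusted p of 0.019 by edgeR passed while the fold did not reach the threshold. The adjusted p no longer passed without scrambled replicate 1 or 2 or TAK1 shRNA replicate 2, at 0.079, 0.068 and 0.066 by edgeR, and with library size alone it was 0.097.

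Both salvage kinases were called lower, with folds closer to the threshold than those of TYMS and DUT. TK1 (ENSG00000167900.12, chr17:78174091-78187233, minus strand), the cytosolic thymidine kinase, stood at 117, 114 and 111 CPM with scrambled shRNA and at 103, 83.1 and 88.6 CPM with TAK1 shRNA. TAK1 shRNA replicate 1 stood apart from the other TAK1 samples and lay nearer to the controls, still below all of them. The means of the groups were 114 ± 3.21 and 91.6 ± 10.3 CPM (SD, n = 3). The log2 fold change was -0.32 ± 0.062 (SE), with an adjusted p of 0.000249 by edgeR. Leaving out each sample moved the log2 fold change of TK1 between -0.41 and -0.25.

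DCK (ENSG00000156136.10, chr4:70992538-71030914, plus strand), which phosphorylates deoxycytidine and activates analogues such as cytarabine and gemcitabine, stood at 39.1, 41.2 and 39.0 CPM with scrambled shRNA and at 31.7, 31.5 and 32.9 CPM with TAK1 shRNA. Both groups were tight and did not overlap. On average it went from 39.7 ± 1.22 to 32.0 ± 0.735 CPM (SD, n = 3). In log2 terms the change was -0.31 ± 0.065 (SE), with an adjusted p of 0.000525 by edgeR. DCK shares 199 exon bases, 6.41% of its exon bases, with MOB1B on the same strand, and MOB1B was also called lower, at a log2 fold change of -0.52. The part of reads shared with MOB1B in the value of DCK was not tested.

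The TK1 to TYMS ratio sets the salvage route to dTMP against the route from dUMP. It was 1.32, 1.23 and 1.23 with scrambled shRNA and 1.60, 1.29 and 1.48 with TAK1 shRNA. The groups overlapped, since the lowest TAK1 shRNA sample lay below the highest control. The log2 difference was 0.20 with an SE of 0.096, and the exact two-sided permutation test gave p = 0.2, the same value after adjustment over the 3 ratios.

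**Figure D3:**
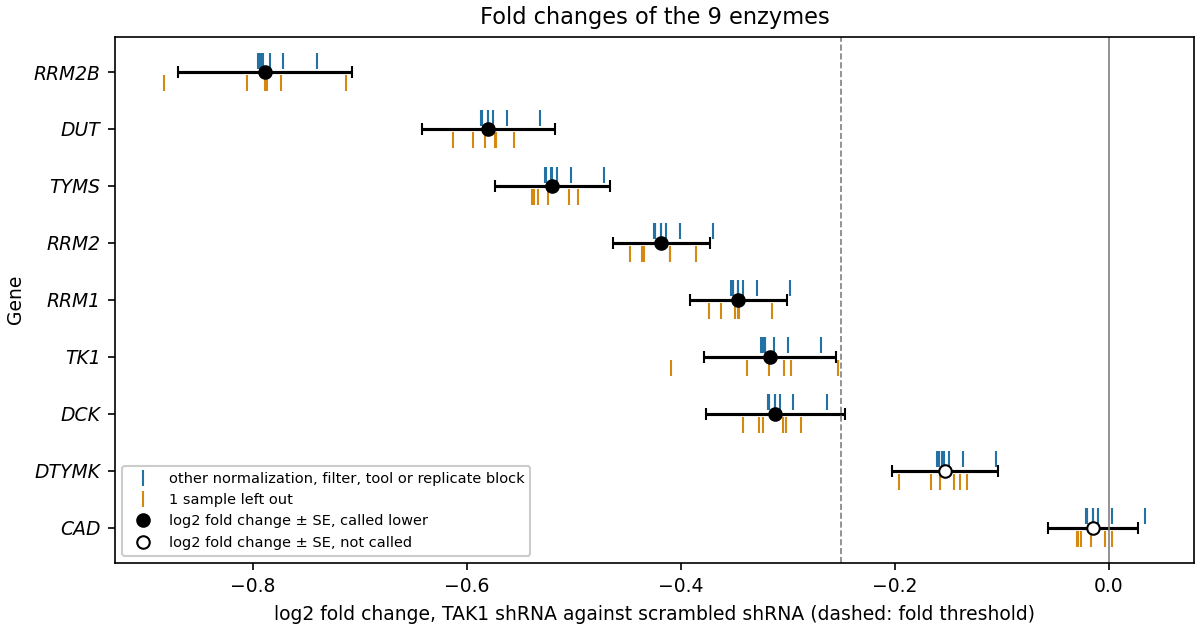
Log2 fold change of each enzyme, TAK1 shRNA against scrambled shRNA, with its SE as a bar, filled where called lower and open where not called. Short marks show the same value under other normalizations, filters, tools and a replicate block (blue) and with 1 sample left out (orange); the 7 called lower stay left of the dashed fold threshold under all of these, and CAD lies near 0.

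TAK1 shRNA replicate 1 did not deviate the same way in every enzyme. It was the lowest of its group for RRM1, RRM2 and RRM2B, the highest for DUT, TYMS, DTYMK, TK1 and CAD, and the middle one for DCK. Without it, the log2 fold change of TK1 was -0.41 and that of RRM2B -0.71, and the median over the 9 enzymes was -0.39. As a comparison that needs no library scaling, chosen after the data were seen, the count of each other enzyme was divided by that of CAD. The groups did not overlap for any of the 8, with log2 differences from -0.78 for RRM2B and -0.56 for DUT to -0.14 for DTYMK. The exact two-sided permutation test gave p = 0.1 for each, the smallest it allows. CAD itself hardly changed, and the other 8 already lay below the controls in CPM. These ratios therefore largely repeat the fold changes and are not separate evidence. The share of all genes whose ratio to CAD separates the groups was not computed.

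Levels of the enzymes were compared per kilobase of exon, since a longer mRNA gives more reads. With the union of annotated exons as the length, the scrambled shRNA order was TK1 at 61.8 CPM per kilobase, DTYMK at 59.2, RRM1 at 54.9, CAD at 53.5, TYMS at 37.3, RRM2 at 33.1, DUT at 14.3, DCK at 12.8 and RRM2B at 5.89. TK1 and DTYMK overlapped between samples in this order, and no other pair of neighbours did. The order depended on the length chosen. RRM2 has 9153 bases of annotated exon but a longest transcript of 3673 bases, and with the longest transcript it stood in the second place at 82.5 CPM per kilobase, behind DTYMK at 130. DUT, DCK and RRM2B stood last in that order with either length. RRM2B was thus the scarcest of the 9 per length, at 5.89 or 6.65 CPM per kilobase, and CAD moved from the fourth to the second place in the TAK1 shRNA order over the union of exons.

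**Figure D4:**
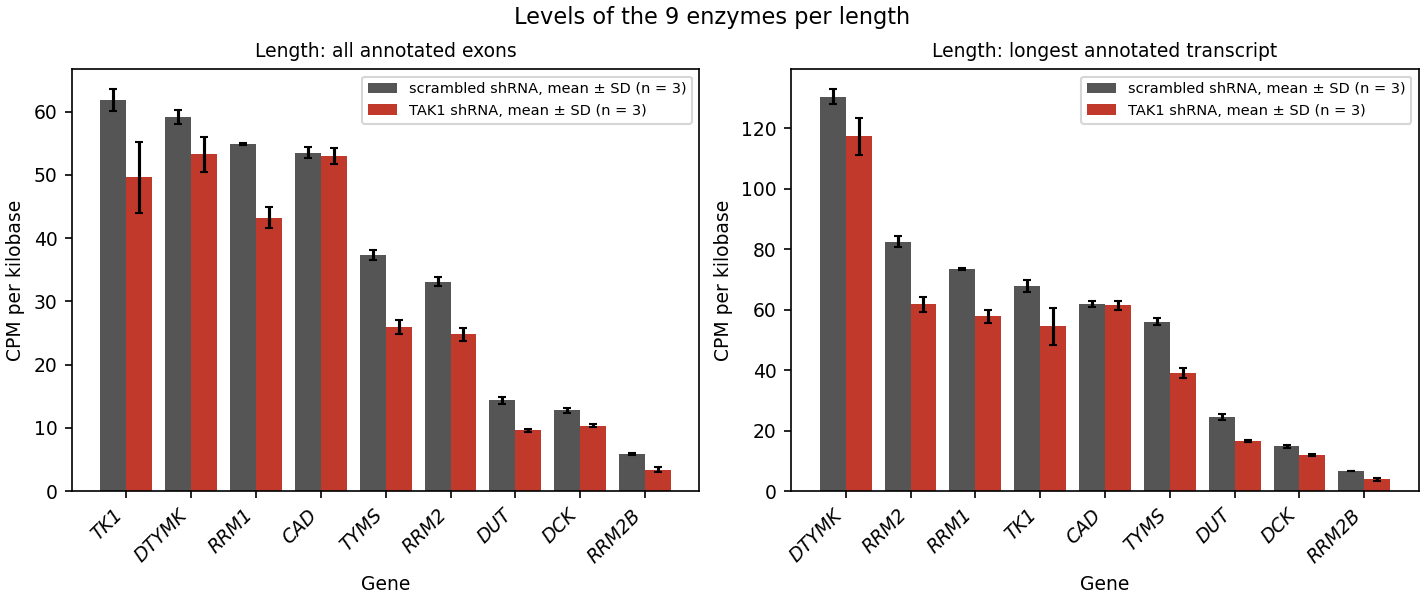
Mean level of each enzyme in CPM per kilobase, with SD (n = 3), in scrambled and TAK1 shRNA samples, over all annotated exons (left) or the longest annotated transcript (right), with both axes starting at 0. RRM2B, DCK and DUT are the lowest 3 of the scrambled shRNA bars in both panels, and RRM2 changes place the most.

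Few counts fell on copies of these genes. The table holds 13 rows named as pseudogenes of DUT, RRM2 or TYMS, 5 of them had any count, and none exceeded 7 counts in a sample. The antisense RNA RRM1-AS1 had at most 2 counts, and TYMSOS, which overlaps 193 exon bases of TYMS, had between 12 and 27. How reads that match several copies were counted is not given in the sources used here.

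Other genes of nucleotide metabolism had a median fold change nearer to 0. In 6 lists of other enzymes and transporters, 70 of 74 genes were tested, 15 were called lower and 4 higher, and the median log2 fold change was -0.10. That is 21.4% called lower, beside the 11.3% of all genes, of which 11.8% were called higher. Of the 6 other pyrimidine synthesis genes, CMPK2, a mitochondrial UMP-CMP kinase, was the 1 called, from 2.30 ± 0.418 to 1.31 ± 0.199 CPM (SD, n = 3). Its call was lost without scrambled replicate 1 or 2, at adjusted p values of 0.061 and 0.065 by edgeR. UMPS, DHODH and CTPS1, which complete UMP and CTP synthesis, had log2 fold changes of -0.13, -0.10 and -0.11 and were not called.

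Of 15 purine synthesis genes, 4 were called lower and 0 higher, with a median log2 fold change of -0.10. This is 26.7% called lower, beside 11.3% of all genes called lower and 11.8% called higher. ADSS, which commits IMP to AMP, fell from 82.2 ± 2.12 to 58.2 ± 0.994 CPM (SD, n = 3). The log2 fold change was -0.50 for ADSS, -0.31 for PAICS and -0.30 for PPAT, the first committed enzyme of the route. The fourth, PRPS1, which makes the ribose donor, was named after its value was seen and stood at -0.26. Its call was lost with library size alone, with upper quartile normalization and without scrambled replicate 2 or TAK1 shRNA replicate 1, where 3 genes of the list were called lower. Under the other scalings the purine count of 0 higher became 1 with library size alone.

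The folate cycle gives the methyl group that TYMS adds to dUMP, and 4 of its 13 tested genes were called lower and 2 higher. The share called lower was 30.8%, beside 11.3% of all genes called lower and 11.8% called higher. Among those called lower, MTHFD1, which interconverts folate one-carbon units, fell from 120 ± 6.72 to 97.4 ± 3.13 CPM (SD, n = 3), or -0.30 on the log2 scale. GGH stood at -0.29, and MTHFD2, named after its value was seen, at -0.29. ALDH1L2 was called higher at 0.27, a call lost in 4 of the 6 fits that left out a sample, those without scrambled replicate 2 or 3 or TAK1 shRNA replicate 2 or 3, at log2 values down to 0.22. With library size alone, MTHFD1 and GGH were no longer called, and GGH was also lost without TAK1 shRNA replicate 1, at -0.22, where 2 genes of the list were called lower.

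Of 16 tested genes of salvage and transport, 4 were called lower and 0 higher, beside 11.3% and 11.8% of all genes. PNP, purine nucleoside phosphorylase, had the largest change, from 20.3 ± 0.0764 to 13.1 ± 1.52 CPM (SD, n = 3), or -0.63 on the log2 scale. UCK2, a uridine-cytidine kinase, stood at -0.37 and SLC25A33, a mitochondrial pyrimidine carrier, at -0.35. UPP1, uridine phosphorylase, named after its value was seen, stood at -0.34 with groups that overlapped. Its call was lost with library size alone and without scrambled replicate 2 or 3 or TAK1 shRNA replicate 2 or 3, where 3 genes of the list were called lower. The count of higher genes rose to 2 without scrambled replicate 1 or TAK1 shRNA replicate 3 and with library size alone or upper quartile normalization.

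Of 6 nucleoside diphosphate kinases, which turn dNDPs into dNTPs, 0 were called lower and NME3 was called higher, at 0.28. Without scrambled replicate 3 NME3 stood at 0.17 and was not called. Of 14 tested genes of nucleotide breakdown, 2 were called lower and 1 higher. All genes gave 11.3% called lower and 11.8% called higher, and the 14.3% called lower in the breakdown list is near that share. NT5E, the surface enzyme that makes adenosine from AMP, fell from 30.1 ± 0.885 to 17.9 ± 0.579 CPM (SD, n = 3), or -0.75 on the log2 scale. The count of lower genes in this list was 1 without scrambled replicate 2 or 3. It was 3 without scrambled replicate 1 or TAK1 shRNA replicate 3. DNPH1, which hydrolyses deoxynucleoside monophosphates, was called higher at 0.37. The count of higher genes in this list was 3 without scrambled replicate 2 and 2 without TAK1 shRNA replicate 1 or 2. With library size alone 1 was called lower and 3 higher, and with upper quartile normalization 2 were called higher.

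**Figure D5:**
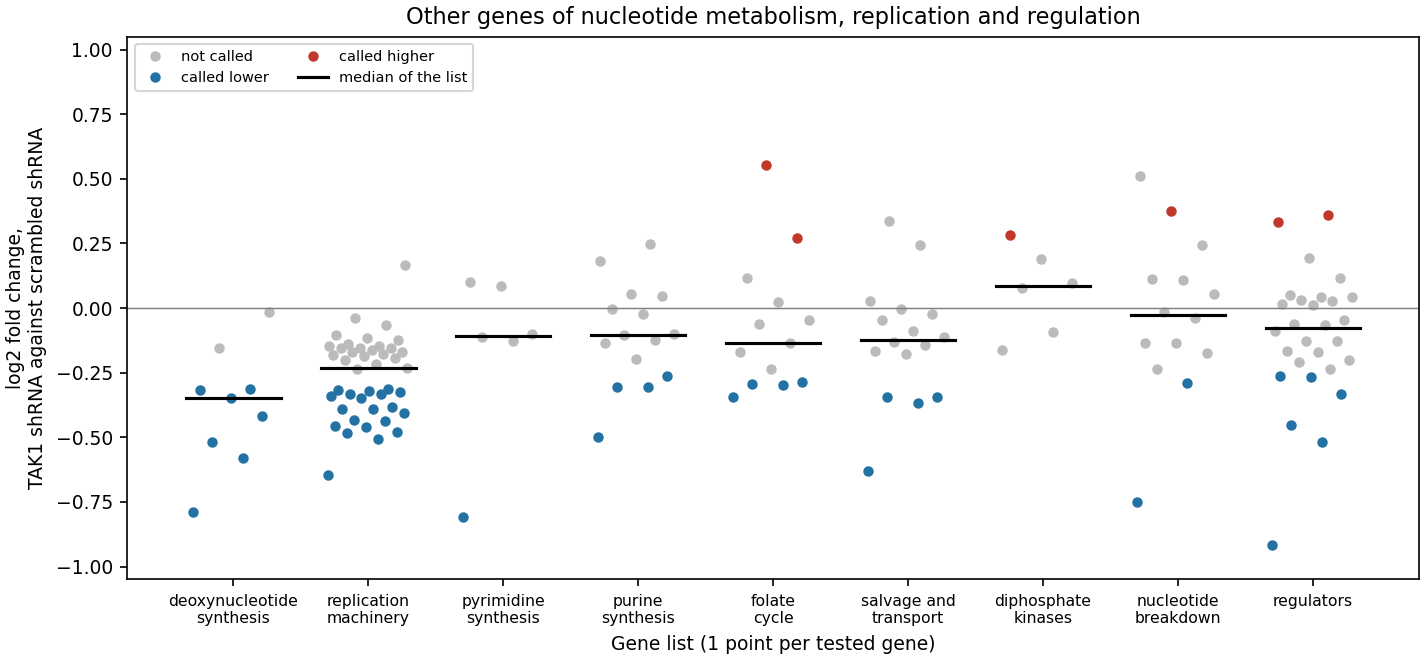
Log2 fold change of each tested gene, TAK1 shRNA against scrambled shRNA, in the 9 enzymes and in 8 lists of related genes, with blue for called lower, red for called higher, grey for not called and a bar at the median of each list. The enzymes have the lowest median, -0.35, followed by the replication machinery at -0.23, and the medians of the other lists lie between -0.13 and 0.086.

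The replication machinery uses the dNTPs, and 20 of its 43 genes were called lower and 0 higher, 46.5% beside the 11.3% of all genes. The median log2 fold change was -0.23 and 42 of the 43 values were below 0. TIPIN, of the fork protection complex, stood at -0.64, PCNA, the sliding clamp, at -0.50 and CLSPN, a checkpoint mediator at the fork, at -0.48. The mean of PCNA fell from 168 ± 0.472 to 118 ± 9.16 CPM (SD, n = 3), a fall close to that of TYMS. At a fold threshold of 0.5 in place of 0.25, 2 of the 43 were called lower, beside 680 of the 15935 genes tested. The share of the list was then near that of all genes.

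Among 28 known regulators of these genes, 6 were called lower and 2 higher, with a median of -0.078. The 6 are 21.4% of the list, beside 11.3% of all genes called lower and 11.8% called higher. NFYC, a subunit of the CCAAT-binding factor NF-Y, fell the most, from 92.3 ± 4.54 to 48.9 ± 0.659 CPM (SD, n = 3), or -0.92 on the log2 scale with an adjusted p of 3.58e-12 by edgeR. The other NF-Y subunits were not called, with log2 fold changes of 0.032 for NFYA and 0.026 for NFYB. E2F8 and E2F2 stood at -0.52 and -0.45, and E2F5 was called higher at 0.36. E2F1, which drives S-phase genes, was not called at -0.17. Its adjusted p of 0.021 by edgeR passed, though not in every alternative, while the fold did not reach the threshold. FOXM1, MYBL2, E2F6 and RBL1, at -0.21, -0.17, -0.24 and -0.20, also passed on adjusted p and missed the fold threshold. RBL2, at 0.19, did the same in the other direction. The adjusted p of RBL1 and that of RBL2 did not pass in every alternative either. RBL1 and E2F6 reached log2 fold changes of -0.27 and -0.29 when a sample was left out. MYC, which is known to activate CAD, was called higher, from 227 ± 4.59 to 285 ± 6.07 CPM (SD, n = 3), or 0.33 on the log2 scale.

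CHEK1, the checkpoint kinase that acts under replication stress, was called lower at -0.33, and TFDP1, the E2F partner, at -0.27. CDC20 stood at -0.26. The calls of TFDP1 and CDC20 lay near the threshold, and both were lost with upper quartile normalization and with library size alone. TFDP1 was also lost without TAK1 shRNA replicate 2, at -0.23, and CDC20 without scrambled replicate 1 or TAK1 shRNA replicate 3, at -0.25 and -0.24. CCNF, which directs RRM2 protein to degradation, had a log2 fold change of -0.060, and FZR1, which acts on TK1 protein, one of 0.042. ATM and ATR, the damage kinases, stood at 0.044 and 0.011. None of these 4 was called.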

How the data were processed

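Poly(A)-enriched RNA of RD cells was sequenced in 3 scrambled shRNA and 3 TAK1 shRNA samples. The authors called bases with CASAVA, removed adaptor-containing and low-quality reads, aligned to GRCh38 with STAR and deposited raw read counts per gene symbol. The counter, annotation release and strand use are not given in the sources used here, and reads of overlapping genes may be shared. Groups came from the labels.

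Counts were tested with edgeR 4.0.16 in R 4.3.3, by its quasi-likelihood test, after filterByExpr with default settings and TMM scaling, and p-values of 15935 genes were adjusted by the Benjamini-Hochberg method. Calls needed an adjusted p below 0.05 and a log2 fold change of 0.25 or more in size. CPM values use the normalized library size. SE values are the size of the log2 fold change over the square root of F, and the approximate 95% interval is the normal one. The common biological coefficient of variation was 5.67%, and no replicate pair of a group agreed within sampling noise (chi-square per degree of freedom 2.86 to 8.67).

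Alternatives were RLE, upper quartile and library size scaling, 2 filters, DESeq2 1.42.0, limma 3.58.1 (voom), 2 other fold thresholds, a replicate block and 1 sample left out at a time. The scripts were tested on simulated data. Ratios of counts were compared with an exact two-sided permutation test. Exon lengths came from GENCODE 44 and promoter windows from RefSeq on GRCh38.p14.

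Genes named are the 9 enzymes, MAP3K7, up to 3 lowest and 3 highest called genes of each list, the listed regulators, pseudogenes and genes whose exons overlap an enzyme. The members and lists were chosen with earlier results of these data known. Some genes that this rule names, and 1 list, are not reported here.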

Additional observations from a re-analysis of the deposited data

How the results depend on the processing

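The 7 enzymes called lower were called under each alternative scaling, filter and tool, with the replicate block and in each fit without 1 sample. The fold threshold moved the count, to 3 at a log2 fold of 0.5 (RRM2B, DUT and TYMS) and to 8 with none, where DTYMK joined. All genes called lower numbered 680 at the 0.5 threshold and 2734 with none, beside 1805, and those called higher 735 at 0.5 and 2569 with none, beside 1879. With library size alone the split was 1404 lower and 2376 higher, 62.9% higher beside 51.0%, and the median log2 fold change of all genes was 0.066. DESeq2 called 1809 lower and 1680 higher and limma voom 1806 and 1818. With the replicate block, 7 enzymes were called lower, 1848 genes lower and 1942 higher, and RRM2B stood at -0.79. Deviations of same-numbered samples correlated at 0.092, 0.056 and 0.035, and scrambled sample 3 correlated best with TAK1 shRNA sample 2, so the numbers are not taken as pairs. Leaving out each sample gave log2 differences of 0.33 to 0.45 for RRM2 to RRM2B, -0.088 to -0.061 for RRM2 to RRM1 and 0.13 to 0.28 for TK1 to TYMS. The levels per kilobase of all 9 enzymes moved with the length used. The effect of depth was not tested by thinning counts, and RRM2B had the fewest, 477 in a TAK1 shRNA sample. With 3 samples a group the permutation tests are limited to p = 0.1.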
